A study of Mus musculus with 31 samples.

Results

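Transcripts of the Toll-like receptor genes Tlr1, Tlr2, Tlr4, Tlr6, Tlr7, Tlr8 and Tlr13, of their partner genes Cd14 and Ly96, and of the adaptor gene Myd88 were followed in single cells of mouse lung. These 10 genes were chosen by symbol, and all 10 were matched among the 47069 genes of the deposited tables. Toll-like receptors are membrane proteins that recognise conserved microbial molecules and, in mononuclear phagocytes, start the transcription of cytokine and chemokine genes. TLR2 works in pairs with TLR1 or TLR6 and binds bacterial lipopeptides, whereas TLR4 binds lipopolysaccharide together with the small secreted protein MD-2, encoded by Ly96. CD14 hands lipopolysaccharide and lipopeptides to these surface receptors. TLR7, TLR8 and TLR13 sit in endosomes, and MyD88 is the cytoplasmic adaptor that most members of the family share.

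The genes were followed in 31 cells from the lungs of Csf1r-GFP mice, named B6 in the title of the study, in which the promoter of the CSF1 receptor gene drives a green fluorescent protein. The adult mice were 10 weeks old, and the right lung lobes were taken 7 days after a sham operation in which the chest was opened. Cells positive for CD45, the reporter and F4/80 were sorted (the sort label names Ly6G without a sign), captured one by one in a microfluidic device and sequenced as separate polyadenylated RNA libraries. All 31 cells form 1 group, no unoperated lung is among them, and no animal is named for any cell, which leaves the group as 1 sample. No p-value was therefore computed, and intervals cover counting error over cells only.

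Cells were divided by Lyz2, the lysozyme gene of myeloid cells, at 1000 FPKM (reads scaled to transcript length and to the depth of the library). The 20 Lyz2-high cells ran from 1229 to 56145 FPKM of Lyz2, and the 11 other cells from 0 to 553 FPKM. The cells nearest the dividing line were C7, at 1229 FPKM, and D10, at 553 FPKM. Total expected counts were 521492 to 4059833 in Lyz2-high cells (median 1591648) and 120835 to 1592301 in the other cells (median 413337). Nuclear protein-coding genes held 87.4 to 95.6% of counts in the 20, against 32.7 to 61.4% in 10 of the other 11 and 87.9% in F11. Differences between the 2 sets therefore go with depth and with the kind of RNA in the library, and the part of either in them was not tested. The myeloid adaptor genes Tyrobp and Fcer1g and the receptor gene Csf1r were found in 20 of 20 Lyz2-high cells, and in 5, 3 and 7 of the 11. Of the 10 alveolar macrophage markers 9 were at 0 in every cell, the exception being Ear2 in 3 Lyz2-high and 2 other cells, so the Lyz2-high cells carried general myeloid genes but not those of alveolar macrophages. Of 8 classical monocyte markers 6 were found in at least 50% of Lyz2-high cells, of 8 nonclassical monocyte markers 3, and of 9 interstitial macrophage markers 0. Of the 10 neutrophil markers 1 reached 50% of Lyz2-high cells, namely Cxcr2, found in 10 of 20 and 10 of 11 cells. Its median was 1.82 FPKM over the Lyz2-high cells that held it. At 10 counts or more Cxcr2 was found in 4 of 20 and 10 of 11. Camp was found in 0 of 20 and 2 of 11 (up to 241 FPKM), and Ngp in 1 of 20 and 1 of 11. Csf3r was found in 9 of 20 and 9 of 11, Ly6g in 7 of 20 and 0 of 11 (up to 115 FPKM), and S100a8 in 3 of 20 and 0 of 11 (up to 1594 FPKM), while S100a9, Retnlg, Ltf and Lcn2 were at 0 in every cell. The list summed to 0 to 1768 FPKM in Lyz2-high cells (median 8.95) and 0.64 to 365 FPKM in the others (median 57.4). Markers of other cell types summed to low medians in Lyz2-high cells, at 0 FPKM for dendritic cells (range 0 to 465), B cells (0 to 152) and T or NK cells (0 to 129) and 0.145 FPKM for endothelial or epithelial cells (0 to 120). In the other cells these medians were 6.04 FPKM (0 to 446), 14 FPKM (0 to 653), 0 FPKM (0 to 481) and 18.4 FPKM (0 to 342). Single markers were wider there, with Xcr1, Ms4a1 and Pecam1 in 9, 10 and 10 of the 11, against 1, 1 and 2 of the 20. At 10 counts or more they were found in 5, 5 and 3 of the 11. Epcam came next, in 4 of the 11 and 0 of the 20. Of the 4 lists, 3 of 8, 2 of 6, 3 of 8 and 6 of 8 markers were found in no cell. The part of these cells in the calls among the 11 was not tested.

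Tlr1 and Tlr6 share identical stretches in which their reads cannot be told apart by sequence, and the longest is shown for that reason. Both genes lie on the minus strand of GRCm38 chromosome 5, Tlr1 (ENSMUSG00000044827) at 64924679 to 64933563 and Tlr6 (ENSMUSG00000051498) at 64952031 to 64960097. In the GENCODE transcripts, 229 bases of coding sequence were the same in 1 transcript of each gene, within exon 3 of 3 of Tlr1 and exon 2 of 2 of Tlr6. The stretch is printed 5′ to 3′ with 20 bases on either side, chr5:64925517-64925785 for Tlr1 and chr5:64953808-64954076 for Tlr6. Capitals mark the 2 bases that differ.
Tlr1: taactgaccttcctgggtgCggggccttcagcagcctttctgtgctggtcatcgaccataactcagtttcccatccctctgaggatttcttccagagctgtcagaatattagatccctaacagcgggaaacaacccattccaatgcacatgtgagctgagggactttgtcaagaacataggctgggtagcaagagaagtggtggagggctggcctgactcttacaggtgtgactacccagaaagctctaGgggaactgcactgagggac
Tlr6: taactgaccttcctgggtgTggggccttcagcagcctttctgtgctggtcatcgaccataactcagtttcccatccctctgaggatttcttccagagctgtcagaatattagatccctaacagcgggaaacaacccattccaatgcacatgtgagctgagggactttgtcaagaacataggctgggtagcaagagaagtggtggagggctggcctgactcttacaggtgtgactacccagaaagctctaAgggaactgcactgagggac
Of all windows of 50 bases in the longest coding transcript, 15.3% in Tlr1 and 12.6% in Tlr6 also occurred in the other gene or elsewhere. The 454 windows that Tlr1 and Tlr6 share lie within and beyond the printed stretch. Reads from such windows are divided between the genes by estimation. In cell C11 the estimated counts were 117.24 for Tlr1 and 253.76 for Tlr6. None of the windows of Tlr2, Tlr4, Tlr7, Tlr8, Tlr13, Cd14 or Ly96 was shared with another gene. In Myd88 9.16% were shared with Acaa1a, a peroxisomal thiolase gene that overlaps it on the opposite strand, as Slc22a14 does on the same strand, and the library chemistry does not mark strand.

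Tlr2 and Cd14 were found in most Lyz2-high cells, and the other 8 genes in a minority of them. A gene counted as found at 1 FPKM or more. Only these 2 of the 10 genes were found in at least 50% of the Lyz2-high cells, a level reached by 9.27% of the 15431 genes found in any cell. The median gene of the 10 was found in 25% of Lyz2-high cells, against 5% for the median of those 15431. The number of the 10 genes per cell was 2 to 6 in Lyz2-high cells (median 3) and 0 to 2 in the others (median 0). Tlr4, Tlr6, Tlr7, Tlr8, Tlr13, Ly96 and Myd88, 7 of the 10, were found in at least 1 Lyz2-high cell and in none of the other 11. So were 4488 (29.1%) of the 15431 genes found in any cell. Of those 15431, only 10818 were found in any Lyz2-high cell, whereas all 10 were, so the 2 shares have unlike bases.

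**Figure D1:**
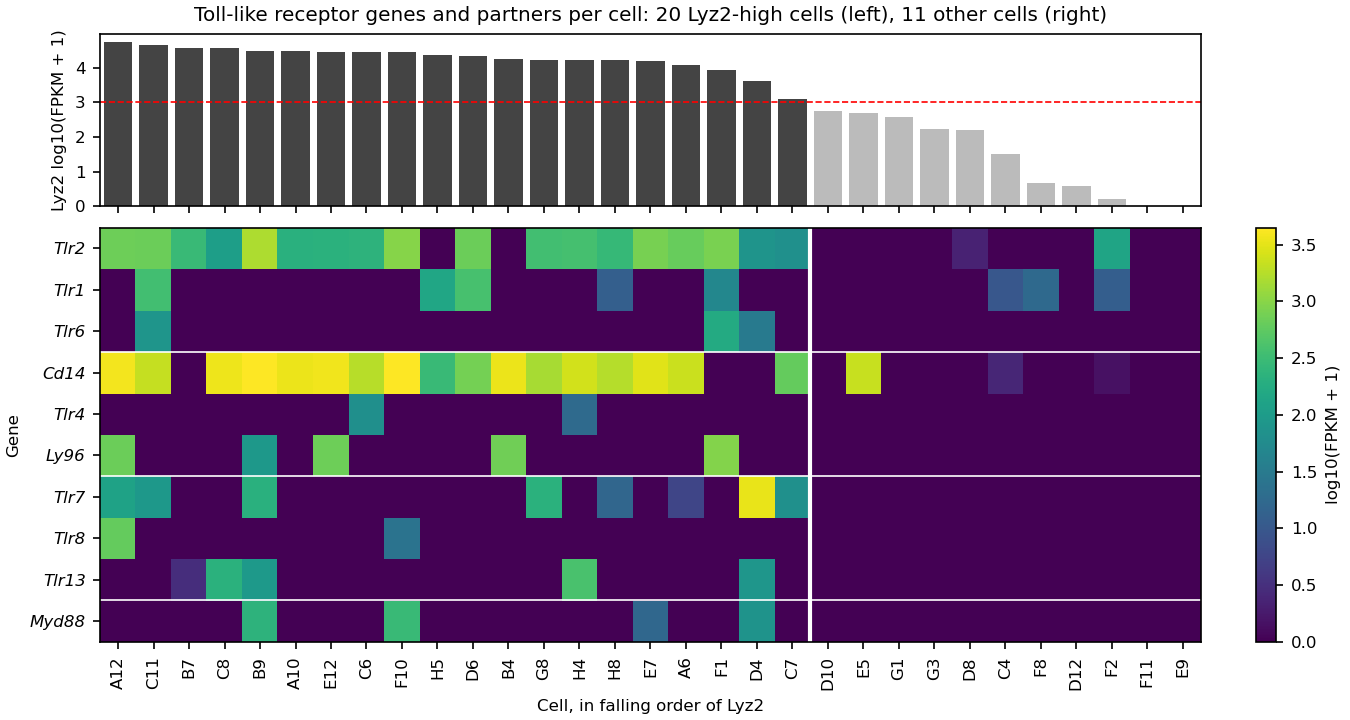
Lyz2 per cell as log10(FPKM + 1), with the dividing line at 1000 FPKM dashed (top), and the 10 genes as log10(FPKM + 1) in the same cells (bottom), in falling order of Lyz2, with the 20 Lyz2-high cells left of the white line and the 11 other cells right of it. The rows of Tlr2 and Cd14 are filled in 18 and 17 of the 20 Lyz2-high cells, while Tlr4 and Tlr8 are filled in 2 each.

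Among the surface receptors, Tlr2 (ENSMUSG00000027995; chromosome 3, 83836272 to 83841767, as all positions on GRCm38) was found in 18 of 20 Lyz2-high cells, or 90% (95% interval by the exact Clopper-Pearson method, 68.3 to 98.8%). Of the other 11 cells 2 held it (18.2%, 2.28 to 51.8%). Its lowest, median and highest values were 0, 324 and 1601 FPKM in Lyz2-high cells, and 0, 0 and 135 FPKM in the others. The 18 Lyz2-high cells that held it had 68.0 FPKM or more, from at least 163 counts, so none of these calls lay near the detection line. Cell B9 was highest at 1601 FPKM, and B4 and H5 were at 0, with 18527 and 24046 FPKM of Lyz2. The sets overlapped through these 2 cells and through F2, a library of 1592301 counts with 0.59 FPKM of Lyz2 that held 135 FPKM of Tlr2 from 604 counts. The remaining Tlr2 call among the other cells, in D8, was 1 count.

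Tlr1 was found in 5 of 20 Lyz2-high cells (25%, 8.66 to 49.1%), at 387 FPKM in D6, 350 in C11, 145 in H5, 48.6 in F1 and 11.6 in H8. The value of C11 rests on an implied gene length of 368 bases, against 1914 to 2843 bases in the other 4, and its 129 CPM (counts scaled to the library total) lay well under the 1100 CPM of D6. At 1 length for all cells C11 comes to 50.1 FPKM. Tlr1 was also found in 3 of 11 other cells, at 16.7 FPKM in F8, 11.4 in F2 and 8.70 in C4, which came from 1, 4 and 1.01 counts. At 10 counts or more Tlr1 was in 5 of 20 and 0 of 11. Tlr6, the alternative partner of TLR2, was found in 3 Lyz2-high cells, F1 with 168 FPKM, C11 with 79.9 and D4 with 30.2, and in 0 of 11 others. Both partner genes were found in C11 and F1. Because of the shared stretches, an absence of 1 of the 2 genes beside the other is less certain than an absence of both.

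Cells that held Tlr2 mostly held neither partner. Tlr2 was found with Tlr1 or Tlr6 in 5 of 20 cells (25%, 8.66 to 49.1%), namely C11, D6, H8, F1 and D4, and without either in the other 13 of its 18 cells. H5 held Tlr1 without Tlr2. Tlr1 and Tlr2 were found together in 4 cells, beside 4.5 if the 2 were independent, and Tlr2 and Tlr6 in 3, beside 2.7.

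Of the genes for lipopolysaccharide recognition, Cd14 (ENSMUSG00000051439; chromosome 18, 36725067 to 36726798) was the highest of the 10 genes. It was found in 17 of 20 Lyz2-high cells (85.0%, 62.1 to 96.8%) and in 2 of 11 others. Its lowest, median and highest values were 0, 2199 and 4470 FPKM in Lyz2-high cells and 0, 0 and 2201 FPKM in the others. The 17 cells held 300 to 4470 FPKM, from at least 1505 counts, while B7, F1 and D4 had 0 FPKM and 0 counts. All 3 of these held Tlr2, at 292, 822 and 77.3 FPKM. Among the other cells, E5 held 2201 FPKM from 999 counts, inside the range of the Lyz2-high cells, and C4 held 1.5 FPKM from 1 count.

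Tlr4 (ENSMUSG00000039005; chromosome 4, 66827584 to 66930284) was found in 2 of 20 Lyz2-high cells (10.0%, 1.23 to 31.7%). The values were 64.3 FPKM in C6, from 264 counts, and 17.5 FPKM in H4, from 240 counts, with 0 counts in the other 18. Ly96 (ENSMUSG00000025779; chromosome 1, 16688051 to 16709611) was found in 5 cells, at 925 FPKM in F1, 713 in B4, 704 in E12, 671 in A12 and 87.0 in B9. Tlr4 and Ly96 were found together in 0 of 20 cells, beside 0.5 if independent, so independence too gives fewer than 1 such cell. Cd14 was found with Tlr4 in 2 cells and with Ly96 in 4. The full set of Cd14, Tlr4 and Ly96 was found in 0 of 20 cells, which allows a share of up to 15%. This is a statement about captured transcripts: 3 counts correspond to 0.739 to 5.75 CPM in these libraries, and transcripts not captured from a cell cannot be told from transcripts not made.

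Tlr2 and Cd14 were found together in 15 of 20 cells (75%, 50.9 to 91.3%), beside 15.3 if independent, and each of the 20 held at least 1 of them. Over the 20 cells Spearman's rho between their FPKM values was 0.30, and over the 15 cells that held both it was 0.42. Both values come from the same libraries and are scaled by the same depth, and the coefficients are given as a description. Neither gene followed depth closely, at rho 0.19 for Tlr2 and -0.20 for Cd14 with total counts.

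Of the endosomal receptors, Tlr7 (ENSMUSG00000044583; chromosome X, 167304929 to 167330558), a sensor of single-stranded RNA, was found in 8 of 20 Lyz2-high cells (40.0%, 19.1 to 63.9%) and in 0 of 11 others. The holders ran from 4.73 FPKM in A6 to 3383 FPKM in D4, with a median of 107 FPKM. The value of D4 stood far above the next, 214 FPKM in G8, but its count did not. D4 held 707 counts, or 415 CPM, against 832 counts, or 775 CPM, in G8 and 1216 counts, or 450 CPM, in A12, where FPKM was 125. RSEM sets the length of a gene anew in each cell from the transcripts it assigns reads to. The length implied by CPM over FPKM was 123 bases in D4, against 3592 to 3720 bases in the other 7 cells. With 1 length for all cells, D4 comes to 115 FPKM and lies among them.

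Tlr8 (ENSMUSG00000040522; chromosome X, 167242696 to 167264329), the neighbouring gene of the same subfamily, was found in 2 Lyz2-high cells, at 608 FPKM in A12 and 23.6 FPKM in F10. A like difference in length was present here, with implied lengths of 304 and 3249 bases, and the CPM were 185 in A12 and 76.7 in F10. Tlr13 (ENSMUSG00000033777; chromosome X, 106143204 to 106160493), which recognises bacterial ribosomal RNA in mice, was found in 5 cells. Its values were 393 FPKM in H4, 212 in C8, 90.3 in B9, 82.3 in D4 and 2.0 in B7, the last from 8 counts. At least 1 of the 3 endosomal receptor genes was found in 12 of 20 cells (60.0%, 36.1 to 80.9%), and all 12 also held a surface receptor gene. A12, B9 and D4 held 2 of the 3, and no cell held all of them.

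**Figure D2:**
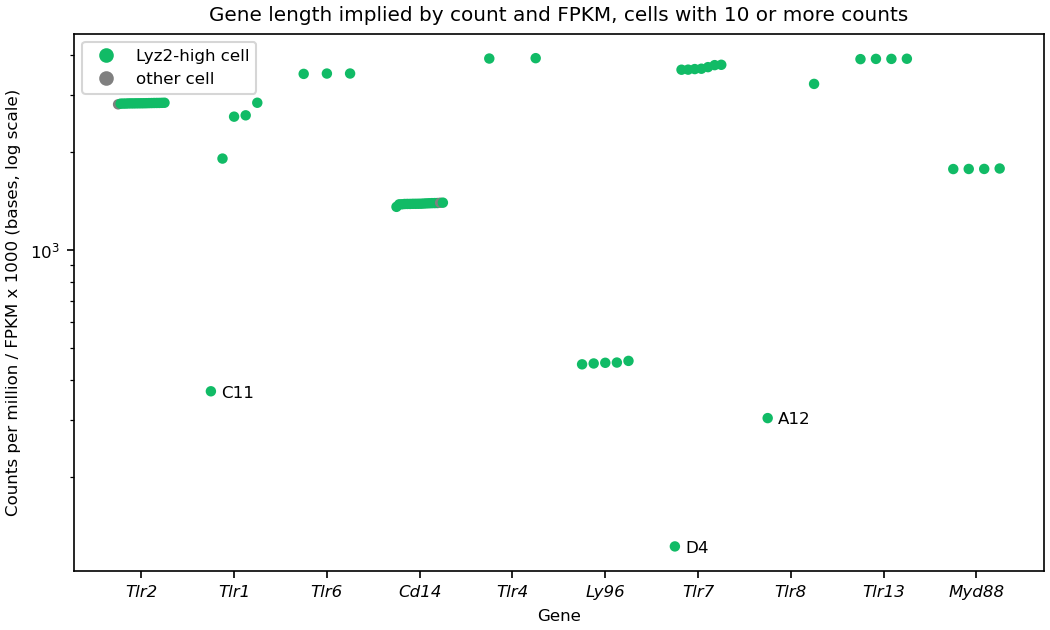
Length implied by CPM over FPKM, in bases on a log axis, for each gene and each cell with 10 or more counts of it (green, Lyz2-high cells, grey, other cells). Points of Tlr2, Tlr4, Tlr6, Tlr13, Cd14, Ly96 and Myd88 lie on level rows, while D4 falls to 123 bases for Tlr7, A12 to 304 for Tlr8 and C11 to 368 for Tlr1.

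Myd88 (ENSMUSG00000032508; chromosome 9, 119335934 to 119341411) was found in 4 of 20 Lyz2-high cells (20%, 5.73 to 43.7%) and in 0 of 11 others. The 4 values were 293 FPKM in F10, 230 in B9, 73.3 in D4 and 15.8 in E7. All 4 cells held Tlr2, and 3 of them Cd14. A receptor gene was found in 19 of 20 Lyz2-high cells, so 15 cells held a receptor gene without Myd88. B9 held 6 of the 10 genes, the most of any cell, namely Tlr2, Tlr7, Tlr13, Cd14, Ly96 and Myd88.

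FPKM is scaled to length, so levels can be set side by side between genes. Among cells that held a gene, the median was 2513 FPKM for Cd14, 704 for Ly96, 363 for Tlr2, 316 for Tlr8, 152 for Myd88, 145 for Tlr1, 107 for Tlr7, 90.3 for Tlr13, 79.9 for Tlr6 and 40.9 for Tlr4. The quartile range of Cd14 (1779 to 3611 FPKM) lay above that of Ly96 (671 to 713 FPKM), and that of Tlr6 above that of Tlr4, which rest on 3 and 2 cells. The quartile ranges of all other neighbours in this order overlapped. With 1 length per gene, the median of its implied lengths, the medians of Tlr8 and Tlr1 were 73.7 and 50.1 FPKM. Their places in the order thus depend on the length used. For Tlr8 that length was 1777 bases, between the 304 of A12 and the 3249 of F10, so 73.7 FPKM is not a full-length value.

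The widest gap between the cells shared by 2 of the 10 genes and the number that independence gives was that of Tlr6 with Cd14, at 1 cell beside 2.55. Of the 45 pairs, 28 were of genes found in at least 3 Lyz2-high cells each, and 12 of these 28 were found together in more cells than independence gives. Of all pairs of genes found in at least 3 of these cells 47.4% were. No cell held both genes in 11 of the 45 pairs, and the share over all pairs of genes was not computed. Of these 11, 9 include Tlr4 or Tlr8, found in 2 cells each, and independence gives 0.2 to 0.8 shared cells for them. The rest were Tlr1 with Tlr13 and Tlr1 with Myd88, beside 1.25 and 1 if independent. The number of the 10 genes per cell had a Spearman's rho of 0.22 with total counts and 0.34 with the number of genes found, over 20 cells.

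**Figure D3:**
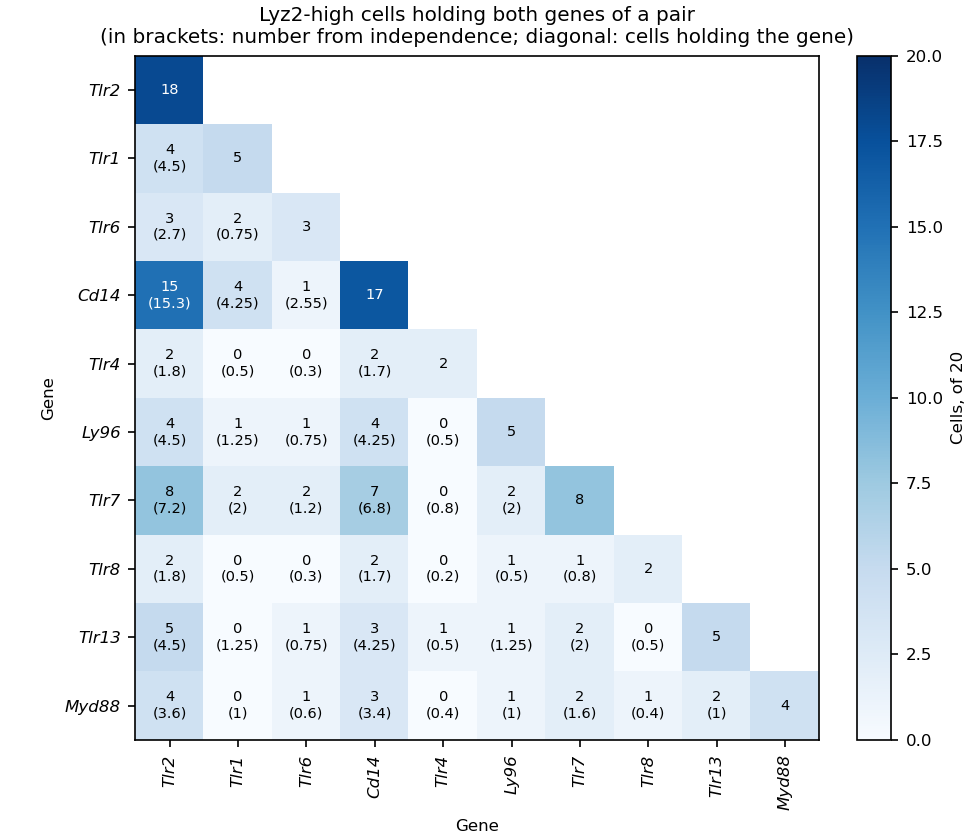
Number of the 20 Lyz2-high cells that held both genes of a pair, with the number that independence gives in brackets, and the cells holding each gene on the diagonal. Tlr2 with Cd14 gives 15 beside 15.3, and Tlr4 with Ly96 gives 0 beside 0.5.

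Of the 10 genes 9 were found in a larger share of Lyz2-high than of other cells, and Tlr1 was the exception at 5 of 20 and 3 of 11. So were 7323 (47.5%) of the 15431 genes found in any cell. Only 10818 of those 15431 were found in any Lyz2-high cell, whereas all 10 were, so these bases too are unlike. At 10 counts or more all 10 were found in a larger share of Lyz2-high cells, but the share of all genes at that line was not computed. The other cells also had fewer counts in total, at a median of 413337 against 1591648. They nonetheless had more genes at 1 FPKM or more, at 2141 to 3574 (median 3200) against 1856 to 3523 (median 2415). Among the Lyz2-high cells, those with C1qb, a complement gene of interstitial macrophages, held Tlr2 in 4 of 6 cells (median 147 FPKM), against 14 of 14 cells without C1qb (median 504 FPKM). Cd14 was found in 5 of 6 (median 1193 FPKM) against 12 of 14 (median 2785 FPKM), and Tlr1 in 3 of 6 against 2 of 14. In all, 4 of the 10 genes were found in a larger share of the cells with C1qb, as were 49.6% of the 10818 genes found in any Lyz2-high cell. Tlr8, Tlr13 and Myd88, 3 of the 10, were found only in cells without C1qb, as were 31% of those genes. These 6 cells had median totals of 2177839 counts, against 1433691 in the 14. Cells with Ly6c2, a gene of classical monocytes, held Tlr1 or Tlr6 in 0 of 10, against 6 of 10 cells without Ly6c2, at median totals of 1233765 and 1812009 counts. Tlr1 and Tlr6, 2 of the 10, were thus found only in cells without Ly6c2, as were 27% of all genes found in Lyz2-high cells. Cd14 was found in 9 of 10 with and 8 of 10 without Ly6c2 (medians 3286 and 1274 FPKM), Tlr7 in 4 and 4, and Tlr13 in 4 and 1. A larger share with Ly6c2 was seen for 4 of the 10 genes and for 36.3% of all genes. These values are a description of few cells, and neither division was tested.

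The rest of the pathway was described from 7 lists of 64 genes, of which 23 were found in at least 50% of Lyz2-high cells, beside 9.27% of all genes found. At 10 counts or more 19 of the 64 were, and at 50 FPKM or more 18. Of 5 further Toll-like receptor genes, Tlr3, Tlr5, Tlr11 and Tlr12 were found in no cell, and Tlr9, which senses DNA in endosomes, in 2 Lyz2-high cells. Of 9 genes for accessory proteins, 4 were found in at least 50% of Lyz2-high cells. Unc93b1, which escorts endosomal receptors from the endoplasmic reticulum, was found in 18 of 20 Lyz2-high cells (median 161 FPKM) and in 2 of 11 others. Hsp90b1, the receptors' folding chaperone, was found in 17 and 6, Ly86, whose product pairs with CD180, in 13 and 1, and the lipid receptor gene Trem2 in 10 and 0. Lrrc32 was found in no cell, and Lbp, which encodes the plasma protein that binds lipopolysaccharide, was found in 0 of 20 and in 4 of 11, at up to 1597 FPKM.

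None of the 4 other adaptor genes was found in at least 50% of Lyz2-high cells. Ticam2, which links TLR4 to the adaptor TRIF, was found in 6 of 20 and in 9 of 11 cells, and Ticam1, which encodes TRIF, in 3 of 20 and 0 of 11. Tirap, which brings MyD88 to TLR2 and TLR4, was found in 1 of 20 and 6 of 11. At 10 counts or more, Ticam2 and Tirap were found in 5 and 1 of the 20 and in 0 of the 11. Of 14 genes for kinases and ubiquitin ligases, 3 reached 50% of Lyz2-high cells. These were Ikbkb, the kinase that marks NF-kappa B inhibitors for degradation (17 of 20, against 4 of 11), the receptor-associated kinase gene Irak2 (11, against 10) and Tab2 (10, against 0). At 10 counts or more Irak2 was found in 9 of 20 and 5 of 11 and Tab2 in 9 of 20 and 0 of 11, both under 50% of Lyz2-high cells. Irak1 was found in 7 of 20 and 11 of 11, while Irak4, the kinase nearest to MyD88, was found in 4 of 20 and 1 of 11.

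Of 10 genes that restrain the pathway, 4 reached 50% of Lyz2-high cells. The inhibitor gene Nfkbia, the phosphatase gene Dusp1 and the RNA-decay factor gene Zfp36 were found in 20 of 20 each, at medians of 2368, 753 and 652 FPKM, and in 9, 7 and 5 of 11. Tnfaip3, a deubiquitinase gene, was found in 16 and 4. Irak3, Tollip and Sigirr, which act close to the receptors, were found in 3, 2 and 1 of 20 and in 0 of 11. Of 8 transcription factor genes 4 reached 50%, namely Rel (18 of 20, against 2 of 11), Irf5 (14, against 1), Nfkb1 (12, against 5) and Rela (11, against 2). At 10 counts or more Rela, in 9 of 20, and the accessory gene Trem2, in 9 of 20, were also under 50%.

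Of 14 genes induced through Toll-like receptors and other stimuli, 8 reached 50% of Lyz2-high cells. Cxcl2, a neutrophil-attracting chemokine gene, was found in 17 of 20 (median 1515 FPKM) and 0 of 11, and the interleukin gene Il1b in 16 (median 589 FPKM) and 4. Nfkbiz was found in 16 and 4 and Tnf in 15 and 4, while Il12b and Nos2 were found in no cell. Over the 20 Lyz2-high cells, Spearman's rho with the 8 targets ran from -0.09 (Ccl4) to 0.41 (Ptgs2) for Tlr2 and from -0.32 (Ccl3) to 0.24 (Il1b) for Cd14. For Tlr2 it was 0.36 with Il1b, 0.35 with Cxcl2, 0.33 with Nfkbiz and -0.03 with Tnf. For Cd14 it was -0.02 with Cxcl2, -0.26 with Nfkbiz, -0.26 with Cxcl10 and -0.04 with Tnf. These coefficients are weak and are given as values only.

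**Figure D4:**
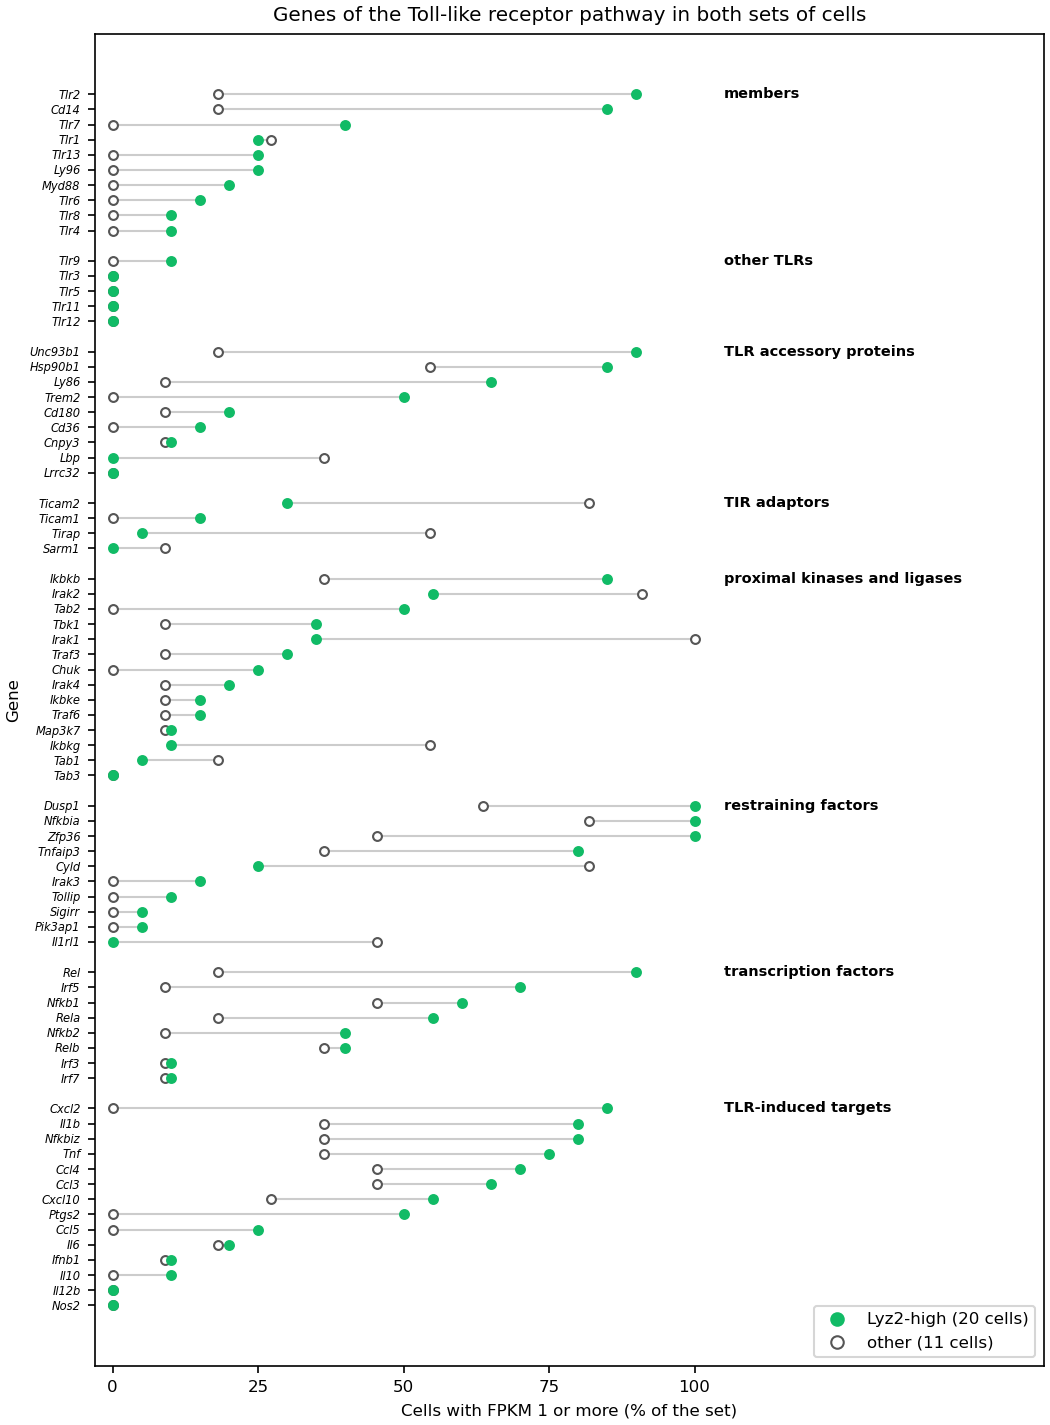
Share of cells with 1 FPKM or more for the 10 genes and 7 lists of pathway genes (rows), in the 20 Lyz2-high cells (green) and the 11 other cells (open circles). Unc93b1, Cxcl2 and Rel lie at 85.0% or more in Lyz2-high cells, whereas Ticam2, Tirap and Irak1 lie further right in the other cells.

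For Tlr1, Tlr2, Tlr7, Tlr13, Cd14 and Ly96, the 6 genes found in at least 5 Lyz2-high cells, the most like genes were ranked by Spearman's rho of log2(FPKM + 1) over the 20 Lyz2-high cells, among 3225 protein-coding genes found in at least 5 of them. For Cd14 they were Mcemp1 (0.73), Clec4e (0.72) and Adssl1 (0.72), and for Tlr2 Itsn1 (0.72), Gm49339 (0.70) and Bicd1 (0.70). For Tlr7 they included Tnfaip3 (0.67) and Orai2 (0.66), and for Ly96 they were Trem2 (0.75), Ano6 (0.74) and Metap2 (0.71). Tlr1 was followed by Sdhd (0.82), Ccl12 (0.72) and Lgals8 (0.72), and Tlr13 by Ctsd (0.76), Mafk (0.74) and Fgfr1op (0.73). The median rho over all ranked genes lay between -0.01 and 0.04. The ranking used FPKM as deposited, so D4 entered for Tlr7 at 3383 FPKM and C11 for Tlr1 at 350 FPKM. With 1 length per gene these values come to 115 and 50.1 FPKM, and no ranking was made with 1 length. The named genes are the highest of 3225 over 20 cells, so their coefficients are high by that choice and were not tested. The 5 cells with Ly96 all held Trem2, which was found in 10. The 8 cells with Mcemp1 all held Cd14, which was found in 17 of 20. Trem2 and Mcemp1 were picked for likeness in these same cells, so such overlaps come with the choice and were not tested. These lists are unstable, since Pearson's r on the same scale kept 6 of the 18 genes.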

How the data were processed

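Per the labels' protocols, sorted cells were captured on a Fluidigm C1 device, SMARTer chemistry amplified polyadenylated RNA, and Nextera XT gave libraries without molecular identifiers. The submitters' processing notes name GRCm38 and the tools RSEM, Trimmomatic and CASAVA 1.8. For the aligner, annotation and settings, nothing was given in the sources used here. Deposited by the authors were a table of expected counts, which are RSEM's estimated counts per gene, and a table of FPKM values, which RSEM scales to depth and to a gene length set in each cell. Of 75 count columns, 44 matched no labelled sample and were not used. No 2 libraries held identical counts.

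FPKM was used as deposited, with 1 FPKM as the line for a gene found, exact Clopper-Pearson 95% intervals, and 3 of n cells as the share that a count of 0 allows. Coordinates (1-based), gene types and transcripts are from GENCODE M21 on GRCm38. Of 47069 identifiers, 46488 matched a symbol. The genes, the 17 lists and the tests were chosen with earlier results of these data known. Genes named by rule were the 10, up to 4 of each list found in most Lyz2-high cells, genes of a list found in no cell, the 3 most like genes and overlapping genes. Tlr9, Lbp, Ticam1, Ticam2, Tirap, Irak1, Irak3, Irak4, Tollip, Sigirr, Ear2, Csf3r, Ly6g, S100a8, Camp, Ngp, Xcr1, Ms4a1, Pecam1, Epcam, Ccl3, Ccl4, Cxcl10 and Ptgs2 were added with their values known. For Tlr7, 1 of the 3 most like genes is not reported here. The planned comparison of receptor proteins was not made, and transcripts were compared instead. No doublet caller was run on 31 cells. The ranking by likeness was tested on simulated data. pandas 2.3.3 and SciPy 1.17.1 were used. Alternatives covered other lines for a gene found, thinning of whole-number counts to 521480 per cell, other Lyz2 minimums, other libraries, other scalings and other likeness measures.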

Additional observations from a re-analysis of the deposited data

How the results depend on the processing

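Of the 173 values recomputed under alternatives, 170 stayed within set limits, which are wide. Among them, 120 shares of cells stayed within the 95% interval of the reported one, as did that of Tlr6 in moving from 15% to 5.88%. A further 40 medians moved by less than 1 SD over the cells holding the gene, as did that of Tlr8 in moving from 316 to 73.7 FPKM. The remaining 10 were counts of genes that stayed within 1.5 times. The 3 values outside the limits concern the genes most like a member, of which 6 of 18 were shared with Pearson's r on log2(FPKM + 1). With a pseudocount of 10 it was 5, and without a filter on genes 8. Cd14, Tlr4 and Ly96 were found together in 0 cells under every alternative tried, an outcome fixed beforehand. No cell held counts of both Tlr4 and Ly96, so no alternative could show them together. Tlr2 and Cd14 stayed in 18 and 17 of 20 cells at 50 FPKM, at 10 counts and after thinning. At 50 FPKM and 10 counts this too was fixed beforehand. The cells holding them had at least 68.0 and 300 FPKM, from at least 163 and 1505 counts. Such counts also left thinning little room to remove a call. At 50 FPKM, Tlr1 was found in 3 cells (5 at 1 FPKM), Tlr2 with a partner in 3 (5) and an endosomal receptor gene in 8 (12). With 1 length per gene, which was chosen after seeing the data, the medians of Tlr8 and Tlr1 moved to 73.7 and 50.1 FPKM. For Tlr8 this length, 1777 bases, lay between the 2 unlike lengths of its cells. At a Lyz2 minimum of 10000 FPKM, which leaves 17 cells, those of Tlr1, Tlr13 and Myd88 were 248, 151 and 230 FPKM. All 10 genes were wider in Lyz2-high cells without E5 and F2, a choice also made after seeing the data. F2 held Tlr1, the only exception when all cells were kept, so the choice itself favoured this outcome. The share of all genes under it was not computed. Shares over 20 cells have wide intervals, and a gene not captured cannot be told from one not transcribed. No paired analysis was possible because all cells form 1 group.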

Other observations

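The other 11 cells held few of the 10 genes, and those that did were unlike each other. E5 held Cd14 from 999 counts together with 485 FPKM of Lyz2, 273 FPKM of Csf1r and 790 FPKM of Ctss, but 0 FPKM of Tyrobp, Fcer1g and Adgre1. F2 held Tlr2 from 604 counts and 4 counts of Tlr1, with 1 count each of Cd14 and Lyz2 and 0 of Tyrobp, Fcer1g and Ctss. F8 held 948 FPKM of Ptprc, 1558 FPKM of Fcer1g and 500 FPKM of Tyrobp, but none of the 10 genes beyond 1 count of Tlr1. F11, which had 87.9% of its counts on nuclear protein-coding genes, held 2364 FPKM of Fcer1g, 2166 FPKM of Ctss and 258 FPKM of C1qb and none of the 10 genes.

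Among these 11 cells, 3 calls rest on implied lengths of 221 to 252 bases, those of Tlr1 in F2, C4 and F8. With the median length of 2576 bases they come to 0.975, 0.82 and 1.63 FPKM, so F8 alone would keep the call. Near full length, 1 count also passed 1 FPKM, for Tlr2 in D8 (1.2 FPKM, 2847 bases) and for Cd14 in C4 (1.5 FPKM, 1394 bases).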
